A study of Sus scrofa with 13 samples.

Results

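The genes described here encode the thick filament of the heart's contractile unit, the sarcomere, together with titin and the proteins of the M-band. The list is MYH7, MYL2, MYL3, MYL4, MYBPC3, TTN, MYOM1 and MYOM2. It was set by gene name and not by a cut-off on a measured value, but with earlier results of these data known. Every probe set whose platform symbol is one of these 8 genes was taken. That gave 7 of the 6765 genes that the platform annotation names, with 8 probe sets out of 23999. TTN has 2 probe sets and the other 6 genes have 1 each. No probe set carries the symbol MYBPC3, the gene of cardiac myosin-binding protein C, so that gene was not analysed here.

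RNA came from heart muscle drill biopsies of 13 female Sinclair miniswine, a small pig breed, all aged 3 months at the start. Every animal had a myocardial infarction, made by permanently closing side branches of the LAD, the coronary artery of the front wall. The saline group (n = 6) then received 2 ml saline over 5 injections in the border zone of the infarct. The stem cells group (n = 7) received 50000000 cells, which the labels call MPCs, in 2 ml saline at 5 sites each receiving 10000000. Biopsies were taken at month 4, and each animal gave 1 Affymetrix porcine array. There was no uninfarcted group, and neither the origin of the cells nor the position of each biopsy relative to the scar is given in the sources used here.

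In the sarcomere, myosin molecules pack into thick filaments that pull on the thin filaments of actin, troponin and tropomyosin. Each myosin heavy chain carries an essential and a regulatory light chain at its neck. Titin is a giant elastic protein that runs from the Z-disc to the M-band at the centre of the thick filament, where myomesins cross-link the myosin tails. The heart muscle of the ventricles of large mammals mainly uses the heavy chain of MYH7 with the light chains of MYL2 and MYL3, while MYL4 is the essential light chain of the atria and of the embryonic ventricle.

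Values are probe set intensities from GCRMA, a method that corrects background and normalizes between arrays, and are given on the log2 scale. Levels of different probe sets are not comparable, so only differences between animals are read. All 8 member probe sets had a mean log2 value above the level of 3.36 that was required for testing, and 14399 probe sets in all were tested with limma. Array medians lay between 13.5 and 14 on the linear intensity scale, and pairwise array correlations between 0.936 and 0.986. The biopsies carried the RNA of heart muscle cells: 10 of 10 non-member cardiomyocyte markers with a probe set passed the filter, TNNT2, TNNC1 and ACTC1 at mean log2 values of 14.75, 14.78 and 14.76. Of 8 skeletal muscle markers with a probe set, 6 did not pass (MYH2, TNNT3, TNNC2, MYLPF, ATP2A1 and MYOD1). The pair that passed were TNNI2, at a mean log2 value of 4.17, and MYL1, which varied from 4.10 to 7.66 in the stem cells animals and from 4.89 to 10.2 in the saline animals. Their part in the member values was not tested. In a bulk biopsy, fewer cells of a type and less RNA per cell cannot be told apart. The sources used here give neither batch nor scan date, so no values within a batch exist.

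The comparison asks whether these genes differed between hearts given stem cells and hearts given saline. The M-band genes MYOM1 and MYOM2 and the TTN probe set that shares probes had the largest mean differences among the members, each higher after stem cells by 0.24 to 0.29 on the log2 scale. The main ventricular myosin genes MYH7 and MYL2 differed by 0.07 each, MYL4 by 0.13 and MYL3 by -0.09. Of the 8 member probe sets, 0 passed an adjusted p of 0.05 in limma, as did 0 of all 14399 probe sets (0%). At an unadjusted p under 0.05, 1 member (MYOM1) was called, against 10.5% of all probe sets, of which 5.4% were higher and 5.15% lower after stem cells. A positive log2 difference was found in 7 of 8 members, against 52.8% of all probe sets, and the median was 0.12 for the members and 0.02 for all. The 10 non-member cardiomyocyte markers leaned the same way, with 7 higher and 3 lower after stem cells and a median of 0.08. The mean of these markers was 0.07 higher after stem cells (exact permutation p of 0.368, adjusted 0.919 over 5 measures of the arrays). Whether the members leaned further than these markers was not tested. TTN counts with 2 probe sets and 23 of 28 member pairs correlated positively across animals, so the 8 signs are not independent. The groups failed to overlap in 0 of 8 members, against 0.278% of all probe sets (0.118% higher after stem cells).

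**Figure D1:**
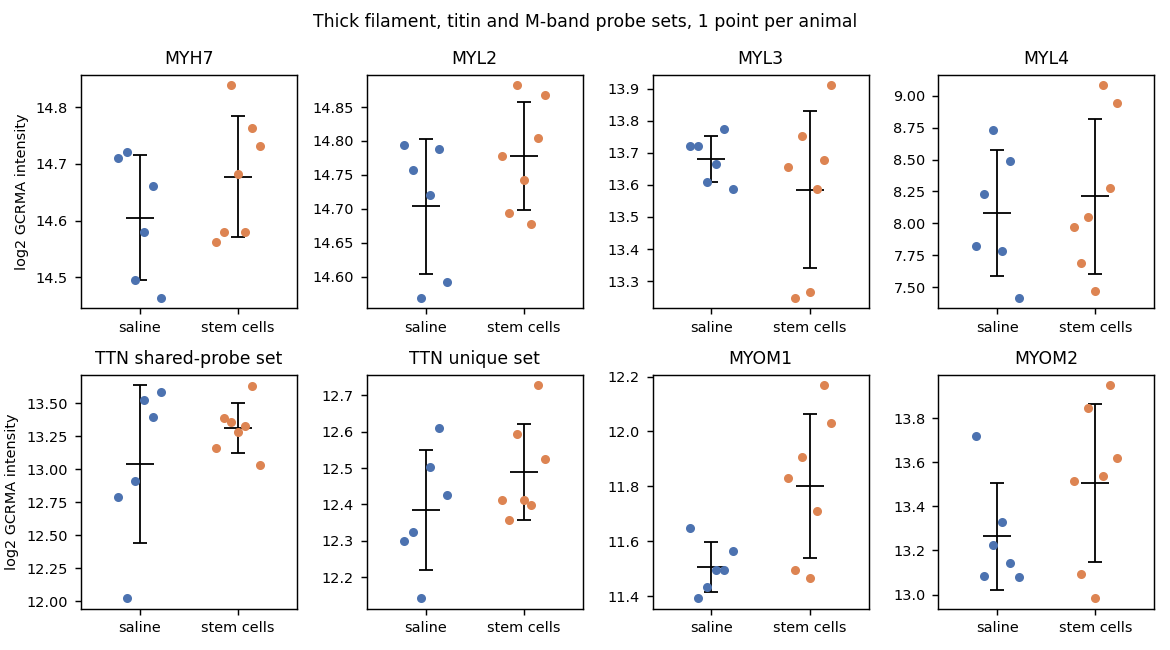
Log2 GCRMA intensity (vertical axis, its own range in each panel) of the 8 member probe sets in 6 saline and 7 stem cells animals. Points are animals, the long dash is the group mean and the bars are 1 SD. The groups overlap in every panel, and 5 of 7 stem cells animals lie above all saline animals for MYOM1.

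MYOM1, encoding myomesin 1, the cross-linker of thick filaments in the M-band (NCBI gene ID 100522496), ranged in the saline animals from 11.39 to 11.65, with a median of 11.50. In the stem cells animals it ranged from 11.47 to 12.17, with a median of 11.83. Stem cells replicates 1, 3, 5, 6 and 7 lay above every saline animal, whereas stem cells replicates 2 and 4, at 11.50 and 11.47, lay within the saline range. The group means were 11.80 ± 0.26 (SD, n = 7) and 11.51 ± 0.09 (SD, n = 6). The log2 difference was 0.29 ± 0.12 (SE), a 1.23-fold difference with a 95% interval of 1.03 to 1.47, at a limma p of 0.0273 and an adjusted p of 0.431. An exact permutation test of the same difference gave a two-sided p of 0.0268, unadjusted. The stem cells animals were spread more widely than the saline animals, from replicate 4 to replicate 6.

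MYOM2, encoding myomesin 2, which is also called M-protein (NCBI gene ID 100523824), ran from 13.08 to 13.72 in the saline animals, with a median of 13.18. In the stem cells animals it ran from 12.98 to 13.95, with a median of 13.54. The high saline value belonged to replicate 1, the saline animal that was also highest for MYOM1. The low stem cells values were again those of replicates 4 and 2, and the groups overlapped over most of their range. The means were 13.51 ± 0.36 (SD, n = 7) and 13.26 ± 0.24 (SD, n = 6), with a log2 difference of 0.24 ± 0.16 (SE; limma adjusted p = 0.589). In 5 of 7 stem cells animals the value lay above the saline mean.

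TTN (NCBI gene ID 100519519) was read by a pair of probe sets that gave different pictures. By Affymetrix naming, the ending _s_at marks a set whose probes match transcripts of more than 1 gene or are shared between them, and the TTN set with that ending is here called the shared-probe set and the other the unique set. In the unique set, saline animals ran from 12.14 to 12.61 with a median of 12.38, and stem cells animals from 12.36 to 12.73 with a median of 12.41. The saline animals were spread both below and among the stem cells animals, 3 of them lying under the lowest stem cells value. The log2 difference was 0.11 ± 0.10 (SE; limma adjusted p = 0.699), with a 95% interval from -0.10 to 0.31, and it was 0.06 without saline replicate 3.

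In the shared-probe set, the saline animals ran from 12.02 to 13.59 with a median of 13.15, and the stem cells animals from 13.03 to 13.63 with a median of 13.33. Saline replicate 2 was the low value, at 12.02 against 12.79 for the next saline animal. The spread was 0.60 (SD, n = 6) in the saline group and 0.19 (SD, n = 7) in the stem cells group. The log2 difference was 0.27 ± 0.21 (SE; limma adjusted p = 0.639), and 0.07 without saline replicate 2. The within-array log2 ratio of the shared-probe set to the unique set was -0.30 in saline replicate 2 and lay between 0.49 and 1.16 in the other 12 animals. The unique set of the same animal, at 12.32, was inside the range of the other saline animals. Which exons or other transcripts the probes of each set match was not analysed here.

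MYH7, the beta-myosin heavy chain and main motor of the ventricle (NCBI gene ID 396860), varied little. Saline animals ran from 14.46 to 14.72 with a median of 14.62, and stem cells animals from 14.56 to 14.84 with a median of 14.68. The ranges overlapped in part. Saline replicates 6 and 3 lay below every stem cells animal. Above every saline animal lay 3 of 7 stem cells animals, replicate 3 the highest. The log2 difference was 0.07 ± 0.07 (SE; limma adjusted p = 0.71), with a 95% interval from -0.07 to 0.22.

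MYL2, the ventricular regulatory light chain (NCBI gene ID 396690), had a similar pattern. It ran from 14.57 to 14.79 with a median of 14.74 in the saline animals and from 14.68 to 14.88 with a median of 14.78 in the stem cells animals. Saline replicates 3 and 6 were the lowest of all 13, and the other 4 saline animals lay among the stem cells animals. The log2 difference was 0.07 ± 0.06 (SE; limma adjusted p = 0.662). MYH7 was at 0.04 without saline replicate 6 and MYL2 at 0.05 without saline replicate 3, and a second quantile normalization put both at 0.02. The highest value of any probe set lay between 15.24 and 15.43 across arrays, so these genes were read near the top of the scale, where a compressed signal was not tested for.

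MYL3, the essential light chain of the ventricle and of slow skeletal muscle (NCBI gene ID 100515755), was the 1 member with a negative log2 difference. The saline animals were close together, from 13.59 to 13.77 with a median of 13.69. The stem cells animals ran from 13.25 to 13.91 with a median of 13.66. Stem cells replicates 2 and 4, at 13.25 and 13.27, lay below every saline animal and replicate 7 above every one, while the remaining 4 lay among them. The means were 13.59 ± 0.25 (SD, n = 7) and 13.68 ± 0.07 (SD, n = 6), with a log2 difference of -0.09 ± 0.10 (SE; limma adjusted p = 0.757). Without stem cells replicates 2 or 4 in turn it was -0.04.

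MYL4, the atrial and embryonic essential light chain (NCBI gene ID 100516998), varied most between animals. It ran from 7.42 to 8.73 with a median of 8.02 in the saline animals and from 7.47 to 9.08 with a median of 8.05 in the stem cells animals. Stem cells replicates 5 and 7, at 9.08 and 8.94, were the highest of all 13, and saline replicate 6 the lowest. The pooled SD within groups was 0.56, against a median of 0.32 over all probe sets tested. The log2 difference was 0.13 ± 0.28 (SE; limma adjusted p = 0.887), with a 95% interval from -0.47 to 0.74, and was -0.01 without stem cells replicate 5. Of 5 other atrial markers with a probe set, 4 passed the filter, with values of -0.77 ± 0.38 for NPPA, -0.31 ± 0.43 for GJA5, -0.29 ± 0.54 for SLN and 0.05 ± 0.23 for NR2F2 (SE; limma adjusted p of 0.497, 0.813, 0.863 and 0.95). No probe set carries the symbol MYL7 or MYH6, the atrial regulatory light chain and the alpha heavy chain.

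**Figure D2:**
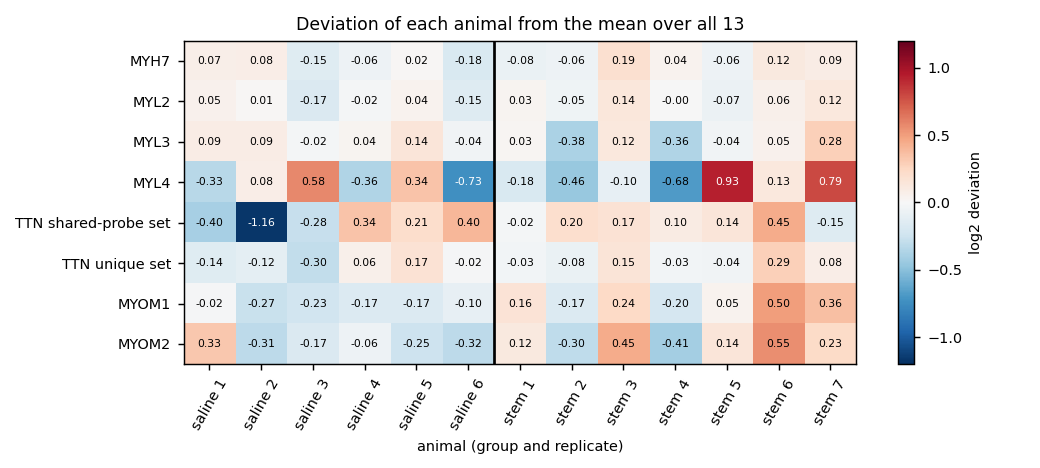
Deviation of each animal's log2 intensity from the mean over all 13 animals, for the 8 member probe sets (rows) in 6 saline and 7 stem cells animals (columns), with the value in each cell and the vertical line between groups. Stem cells replicates 2 and 4 are low in MYL3, MYOM1 and MYOM2, stem cells replicate 6 is high in MYOM1 and MYOM2, and saline replicate 2 stands out in the TTN shared-probe set.

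Ratios between members within an array, in which any scaling of the whole array cancels, asked whether the members moved apart. The MYL3 to MYL2 ratio was nearly constant in the saline animals, at a log2 value of -1.02 ± 0.04 (SD, n = 6), and lower in the stem cells animals, at -1.19 ± 0.19 (SD, n = 7). In 6 of 7 stem cells animals it lay below every saline animal, and in replicate 7 it lay just above all of them. The difference of -0.17 ± 0.08 (SE) had an exact permutation p of 0.0443, two-sided, and 0.206 when adjusted over 7 ratios. It passed only without stem cells replicate 7, the animal that lay above the saline range, at -0.21 with an adjusted exact permutation p of 0.0152. With any other single animal left out, the adjusted exact permutation p was 0.205 to 0.451. The difference was -0.04 after a second quantile normalization (exact permutation p of 0.652).

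MYOM1 relative to MYH7 had a mean log2 ratio of -2.88 ± 0.22 (SD, n = 7) in the stem cells animals and -3.10 ± 0.14 (SD, n = 6) in the saline animals. That difference, 0.22 ± 0.10 (SE), gave p = 0.0589 by exact permutation and 0.206 after adjustment, and 4 of 7 stem cells animals lay above every saline animal. The other 5 ratios had adjusted exact permutation p of 0.818 to 0.936. MYOM1 relative to MYOM2 differed by 0.05 ± 0.09, MYOM1 relative to TTN by 0.02 ± 0.25 and TTN relative to MYH7 by 0.20 ± 0.26 (SE), TTN being read by its shared-probe set. With the mean of both TTN sets in its place, these were 0.11 and 0.12, and without saline replicate 2 they were 0.20 and -0.02. MYL4 relative to MYL2 and to MYL3 differed by 0.06 ± 0.31 and 0.23 ± 0.26 (SE), and by -0.10 and 0.08 without stem cells replicate 5. Without saline replicate 3 they were 0.21 and 0.37, and the latter was 0.11 without saline replicate 6. The planned ratio of MYBPC3 to MYH7 had no probe set.

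**Figure D3:**
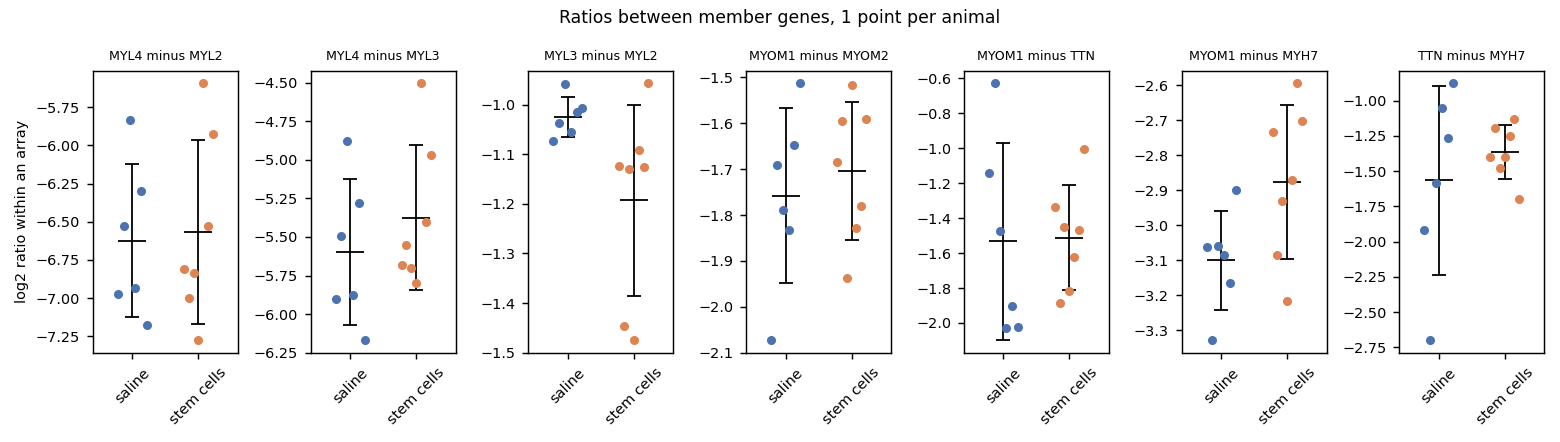
Log2 ratios between member genes within an array (vertical axis, its own range in each panel) in 6 saline and 7 stem cells animals. Points are animals, the long dash is the group mean and the bars are 1 SD. The MYL3 to MYL2 ratio lies in a narrow band in the saline animals and below it in 6 of 7 stem cells animals.

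The members varied together from animal to animal in 3 pairs that passed adjustment over all 28 pairs. These correlations use deviations from the group means over 13 arrays, with permutation tests of 100000 shuffles within groups. MYH7 and MYL2 had a Pearson r of 0.87 (permutation p of 0.00062, adjusted 0.0153) and a Spearman rho of 0.86 (permutation p of 0.001, adjusted 0.0245), with r at 0.82 without the 2 arrays farthest from the median. MYOM1 and MYOM2 had an r of 0.86 (permutation p of 0.00109, adjusted 0.0153) and a rho of 0.80 (permutation p of 0.00262, adjusted 0.0245), with r at 0.75 without the 2 farthest arrays. MYL2 and MYL3 had an r of 0.66 (permutation p of 0.00525, adjusted 0.049) and a rho of 0.77 (permutation p of 0.00176, adjusted 0.0245), with r at 0.72.

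After a second quantile normalization the r of MYOM1 with MYOM2 was 0.80, while that of MYH7 with MYL2 was 0.49 and that of MYL2 with MYL3 was 0.25. MYL3 correlated with MYOM1 at 0.80 and with MYOM2 at 0.72, neither past adjustment (permutation p of 0.0161 and 0.0216, adjusted 0.113 and 0.121). Without stem cells replicates 2 and 4 these values were 0.53 and 0.37. The TTN sets correlated at 0.50 with each other (permutation p of 0.132, adjusted 0.247). Over all 28 pairs, r ran from -0.34 to 0.87 with a median of 0.47, and it was above 0 in 23.

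MYOM1 was lower in biopsies with more matrix signal. The mean of 11 fibroblast and matrix markers, among them LUM, DCN, FN1, POSTN and SPARC, correlated with MYOM1 at an r of -0.81 over 13 arrays (permutation p of 0.00041, adjusted 0.0164 over 40 relations). The rho was -0.91 (permutation p of 0.00014, adjusted 0.0056), and r was -0.81 without saline replicate 2 and stem cells replicate 4, the arrays with the most matrix signal. Within groups r was -0.91 in the stem cells animals (exact permutation p of 0.00694, n = 7) and -0.84 in the saline animals (exact permutation p of 0.0361, n = 6), adjusted to 0.069 and 0.0867 over 12 relations. Stem cells replicates 4 and 2, with the lowest MYOM1 of their group, had its highest marker means, at 9.97 and 9.56. Stem cells replicate 6, with the highest MYOM1, had the lowest marker mean of all 13 animals, at 8.38.

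MYOM2 correlated with the matrix markers at -0.63 (permutation p of 0.0299, adjusted 0.239; rho of -0.62 at a permutation p of 0.0389, adjusted 0.259; -0.48 without the same 2 arrays). Within groups it was -0.76 in the stem cells animals (exact permutation p of 0.0599, n = 7) and -0.44 in the saline animals (exact permutation p of 0.361, n = 6). MYL3 correlated at -0.52 overall (permutation p of 0.0881), at -0.80 in the stem cells animals (exact permutation p of 0.0313, adjusted 0.0867, n = 7) and at 0.31 in the saline animals (exact permutation p of 0.594, n = 6). For MYH7, MYL2 and MYL4 the values were 0.06, -0.16 and -0.12 (permutation p of 0.847, 0.622 and 0.702). The TTN shared-probe and unique sets were at -0.40 and -0.32 (permutation p of 0.204 and 0.308). The mean of 10 non-member cardiomyocyte markers correlated with MYOM1 at 0.77 (permutation p of 0.00648) and with MYOM2 at 0.79 (permutation p of 0.00502), both adjusted to 0.0864, with rho of 0.78 and 0.66 (permutation p of 0.00765 and 0.024, adjusted 0.153 and 0.24). With the arrays of stem cells replicates 3 and 6 left out, these were 0.66 and 0.65. Within groups, MYOM1 was at 0.83 in the stem cells animals and 0.68 in the saline animals (exact permutation p of 0.027 and 0.133, adjusted 0.0867 and 0.2). MYOM2 was at 0.90 in the stem cells animals and 0.50 in the saline animals (exact permutation p of 0.0115 and 0.34, adjusted 0.069 and 0.394). The rho of MYOM2 was 1.00 in the stem cells animals and 0.03 in the saline animals. The same marker mean correlated with MYH7, MYL3, the TTN unique set and MYL2 at 0.66, 0.58, 0.57 and 0.56 (permutation p of 0.0215, 0.081, 0.0476 and 0.0538). MYH7 was adjusted to 0.215 and the others to 0.252. After a second quantile normalization they were at 0.28, 0.75, 0.57 and -0.15. MYL4 and the TTN shared-probe set were at 0.17 and 0.11 (permutation p of 0.6 and 0.701).

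**Figure D4:**
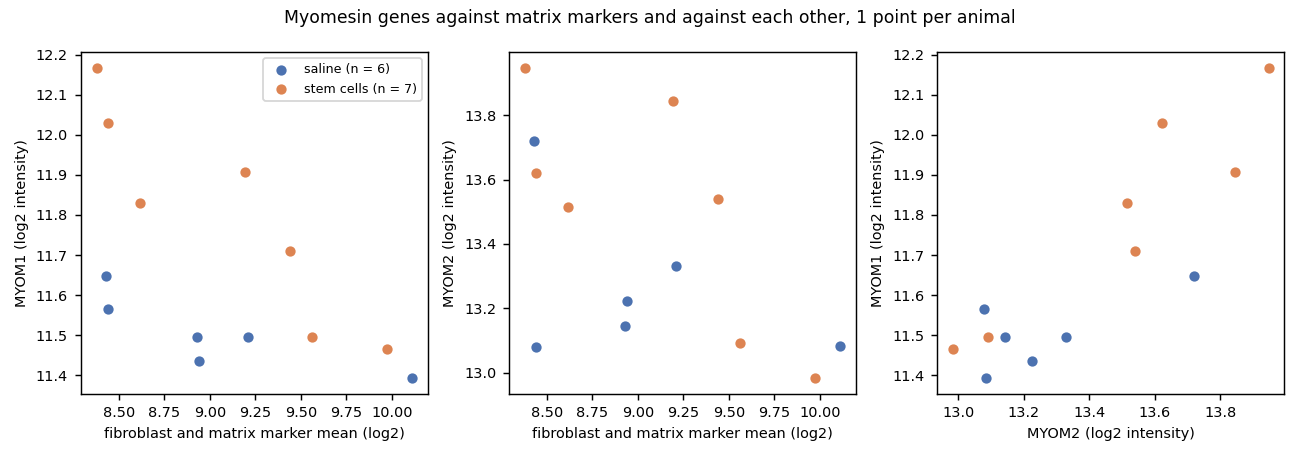
MYOM1 and MYOM2 (log2 intensity) against the mean log2 value of 11 fibroblast and matrix markers, and against each other, for 6 saline and 7 stem cells animals, 1 point per animal. MYOM1 is lower where the marker mean is higher, within each group, and animals high in MYOM1 are high in MYOM2.

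The matrix marker mean itself was 9.09 ± 0.62 (SD, n = 7) in the stem cells group and 9.01 ± 0.62 (SD, n = 6) in the saline group, 0.07 apart (p = 0.828 by exact permutation). Single markers went both ways, 7 higher and 4 lower after stem cells, with log2 differences from -0.39 to 0.50. Their summed intensity over 12 genes ran from 19797 to 58405 after stem cells and from 18641 to 62795 after saline, and 11 of the 12 genes passed the filter (COL5A2 did not). With the marker mean as a covariate, chosen after these values were seen, the MYOM1 log2 difference was 0.31 ± 0.09 (SE), at a limma p of 0.0046 and an adjusted p of 0.354, and MYOM2 was at 0.27 ± 0.13 (SE; adjusted p of 0.437). Smooth muscle and macrophage markers had medians of -0.20 over 7 genes and -0.50 over 6 genes (sums of 6935 to 13776 and 589 to 1184 after stem cells, 8172 to 16561 and 650 to 2236 after saline). Endothelial markers had a median of -0.11 over 5 genes (3167 to 5249 and 3584 to 5426). Their part in the member values was not tested.

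RNA degradation was gauged from control probe sets that lie near each end of a transcript, since a 3' signal well above the 5' signal marks broken RNA. For EF1A this log2 ratio averaged 0.81 ± 0.11 (SD, n = 7) in the stem cells group and 0.95 ± 0.10 (SD, n = 6) in the saline group (p = 0.046 by exact permutation, 0.23 once adjusted for 5 measures of the arrays). With that ratio as a covariate, a fit chosen after seeing the data, MYOM1 was at 0.23 ± 0.15 and MYOM2 at 0.06 ± 0.18 (SE; limma adjusted p of 0.667 and 0.945). The unadjusted limma p of MYOM1 was then 0.144. In the same fit the TTN shared-probe set was at 0.54 ± 0.23, MYH7 at -0.01 ± 0.08 and MYL4 at -0.13 ± 0.34 (SE; limma adjusted p of 0.579, 0.973 and 0.935). The actin ratio was higher throughout, at 2.89 ± 1.11 (SD, n = 7) in the stem cells group and 3.13 ± 0.74 (SD, n = 6) in the saline group (p = 0.664 by exact permutation). The GAPDH ratio was 0.53 ± 0.36 (SD, n = 7) and 0.52 ± 0.33 (SD, n = 6; p = 0.959 by exact permutation). On both measures stem cells replicate 2 and saline replicate 2 were the highest of the 13, at 5.03 and 4.20 for actin and at 1.12 each for GAPDH. The former is, with replicate 4, low in MYL3, MYOM1 and MYOM2 within its group, and the latter has the low TTN shared-probe value. For EF1A the order differed: saline replicate 2 was the lowest of its group, at 0.80, and stem cells replicate 2 the highest of its group, at 1.01. Whether RNA quality shaped these member values was not tested. Over 13 arrays the actin ratio correlated with MYL3 at -0.58 and with MYOM1 at -0.51 (rho of -0.39 and -0.47; permutation p of 0.0822 and 0.133 for r, adjusted 0.252 and 0.278). The GAPDH ratio correlated with MYOM1 at -0.54 and with the TTN shared-probe set at -0.51 (rho of -0.55 and -0.34; permutation p of 0.0693 and 0.0757 for r, both adjusted to 0.252), and at -0.32 and -0.25 without saline replicate 2 and stem cells replicate 2. The EF1A ratio correlated with them at -0.25 and 0.49 (rho of -0.02 and 0.37; permutation p of 0.469 and 0.083 for r, adjusted 0.625 and 0.252), and at -0.09 and 0.35 without the same 2 animals. The largest r of any of these ratios with a member was that of EF1A with MYH7, at -0.61 (rho of -0.62; permutation p of 0.0368 for r, adjusted 0.245). It was -0.50 without the same 2 animals. EF1A with MYOM2 was at -0.46 (permutation p of 0.139, adjusted 0.278).

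Other sarcomere genes were taken from 3 lists, with a gene read by its probe set of highest mean, and 0 of their 23 tested genes passed an adjusted p of 0.05 in limma. At an unadjusted p under 0.05, 1 gene passed (PPP1R12A), against 10.5% of all probe sets. Of 14 thick filament partners and assembly factors, 4 had a probe set and were tested, with a median log2 difference of 0.08 and 3 above 0. PPP1R12A, the targeting subunit of myosin phosphatase, was at 0.31 ± 0.14 (SE; limma adjusted p = 0.458), with its other probe sets at 0.02 and 0.60. PPP1CB, the catalytic subunit of that phosphatase, was at 0.16 ± 0.12. UNC45B and SMYD1, which help myosin to fold and assemble, were at -0.12 ± 0.24 and 0.00 ± 0.17.

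Of 17 genes that bind or regulate titin, 9 had a probe set and 8 were tested, with a median of -0.02 and 3 above 0. That median has no settled sign, since it was 0.06 without stem cells replicate 6 and 0.04 after a second quantile normalization. CAPN3 did not pass the filter. TRIM55, a ubiquitin ligase of the M-band region also called MURF2, was at 0.31 ± 0.17 (SE; limma adjusted p = 0.526). CRYAB, a small heat shock protein that binds titin's spring region, was at -0.18 ± 0.12, with its dim second probe set at 1.03 ± 0.64. SQSTM1, an autophagy adaptor linked to the titin kinase, was at -0.16 ± 0.13, and the Z-disc anchor ACTN2 at 0.09 ± 0.09.

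Of 13 thin filament genes, 11 had a probe set and were tested, with a median of 0.04 and 7 above 0. TNNT1, the slow skeletal troponin T, was at -0.55 ± 0.29 (SE; limma adjusted p = 0.515) and NEBL at 0.27 ± 0.31. Cardiac actin ACTC1 was at 0.12 ± 0.07 and cardiac troponin T, TNNT2, at -0.06 ± 0.06.

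**Figure D5:**
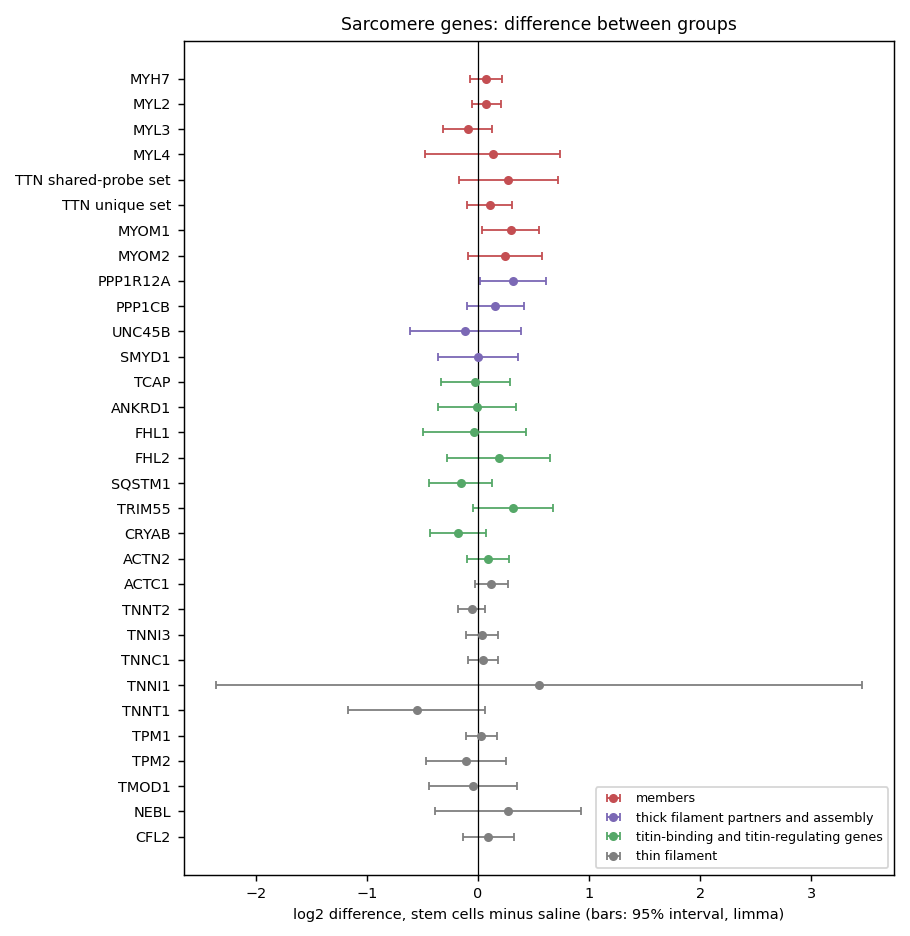
Log2 difference between stem cells and saline (horizontal axis) for the 8 member probe sets and 23 further sarcomere genes, coloured by list. Points are limma estimates from 7 against 6 animals and bars are 95% intervals. The intervals of MYOM1 and PPP1R12A exclude 0 before adjustment, and all others include it.

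By deviations from the group means over the 13 arrays, the genes most like MYOM1 among 5195 searched were CS, the citrate synthase of mitochondria (r of 0.89), EPHX1, an epoxide hydrolase (0.87), and MYOM2 (0.86). CS had a log2 difference of -0.06 ± 0.11 and EPHX1 of 0.03 ± 0.32 (SE; limma adjusted p of 0.866 and 0.977). The genes most like MYL4 were GPRC5C, GGA3 and DNAJA3 (r of 0.91, 0.89 and 0.86). Those most like MYH7 were ACTG1, cytoplasmic gamma-actin (0.94), PIGM (0.92) and TNNC1, cardiac troponin C (0.90). The ACTG1 probe set ends in _s_at and can share probes with other actins. These r are descriptions of 13 arrays that share their normalization, and the best of 5195 genes is high by selection.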

How the data were processed

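Biotin-labelled RNA of 13 biopsies was read on porcine Affymetrix chips, according to the labels' protocols. The deposited table gives linear intensity per probe set. The submitters' processing notes name GCRMA, with neither version nor settings. After removal of 124 controls, log2 values of 23999 probe sets were used. The platform annotation, whose symbols can be old, pairs 10069 of them with 1 gene, 198 with several and 13732 with none. All 7 member gene IDs are in the pig annotation Sscrofa11.1 under the same symbol. Coordinates are left out, since the array's build was not stated.

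Probe sets with a mean above the 40th percentile were tested. The fit used limma 3.58.1 under R 4.3.3 (lmFit, then eBayes with a variance trend), with Benjamini-Hochberg adjustment over all 14399 probe sets, after a test on simulated data. Single ratios were compared by exact permutation over 1716 splits. Named genes were all member probe sets, the up to 4 genes of each related list with the smallest p, the 3 genes most like MYOM1, MYL4 and MYH7, and markers of other cell types. The members and lists were chosen with earlier results of these data known. The number of arrays limits the precision: over all tested probe sets, log2 differences had a median SE of 0.18.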

Additional observations from a re-analysis of the deposited data

Results flagged for a closer look

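Among 54 groups of values looked at for a single animal far from the others, 1 stood out. Chance, at 1 in 20, gives about 2.7. TNNT2, the cardiac troponin T of the thin filament, had a log2 intensity of 14.88 in saline replicate 1, with the next saline animal at 14.79. No member of the thick filament, titin and M-band genes stood out in this way.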

How the results depend on the processing

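The members past an adjusted p of 0.05 in limma stayed at 0 of 8 under every alternative run, with 0 to 2 members at an unadjusted p under 0.05. Among all probe sets the count was 0 to 1 with 1 animal left out, the 1 being HIGD1B at -0.72 ± 0.09 (SE; adjusted p of 0.0219) without saline replicate 5, and 0 in the other fits. MYOM1 ran from 0.23 to 0.35 with 1 animal left out, at a limma p of 0.00918 to 0.0577, under 0.05 in 9 of 13 fits. Member values and ratios that changed sign were MYL4 (-0.01 to 0.26 with 1 animal left out), MYL4 to MYL2 (-0.10 to 0.21), MYOM1 to MYOM2 (-0.010 to 0.101), MYOM1 to TTN (-0.078 to 0.202) and TTN to MYH7 (-0.025 to 0.339). MYL3 to MYL2 ran from -0.21 to -0.12 and MYL4 to MYL3 from 0.081 to 0.37. MYOM1 to TTN was -0.0025 after a second quantile normalization. With the EF1A ratio as a covariate MYH7 was at -0.013 and MYL4 at -0.126. The cause of these changes was not tested. The replicate numbers share no stated origin, and same-numbered animals correlated at -0.27 to 0.24 in their deviations. A fit with the replicate number as a block over 12 arrays called 0 probe sets, with MYOM1 at 0.26 ± 0.13 (SE; limma p of 0.0725, adjusted 0.543). With the same block, the ratios of MYL4 to MYL2 and MYOM1 to TTN were at -0.049 and -0.063. With 1 animal left out, the median of the thick filament partners ran from 0.041 (without stem cells replicate 3) to 0.161 (without stem cells replicate 1), that of the titin-binding genes from -0.067 (without saline replicate 3) to 0.061 (without stem cells replicate 6), changing sign, and that of the thin filament genes from 0.0075 (without stem cells replicate 6) to 0.060 (without stem cells replicate 2 or 5). A second quantile normalization put the latter pair of medians at 0.043 and 0.0062.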
